A study of Mus musculus with 2 samples.

Results

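Mir378a is the microRNA gene inside an intron of Ppargc1b, and its reads were among the most numerous of those assigned to a single microRNA gene in mouse calf muscle. It was found as the row of the count files whose Ensembl identifier, ENSMUSG00000105200.1, carries the name Mir378a in GENCODE mouse release M21. It is 1 of 2202 microRNA genes counted, and 1 of 278 with at least 10 counts in each library, which are called detected here. The tissue was gastrocnemius, the main calf muscle, of B6CASTF1/J females at 2 months of age, and small RNA under 30 nt was sequenced. B6CASTF1/J is the first-generation hybrid of the C57BL/6J and CAST/EiJ strains. There is 1 group of 2 libraries, biological replicates 2 and 1, with no treatment, no mutation and no second condition. The labels give the replicates separate female numbers but 1 donor code, so how far the spread between libraries is a spread between animals rests on the labels alone. Own-strand reads placed in 1 microRNA gene numbered 2291821 in replicate 2 and 1950204 in replicate 1. That was 15.9% of the 14377558 reads listed for replicate 2 and 20.7% of the 9410562 listed for replicate 1.

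Ppargc1b encodes PGC-1beta, a transcriptional coactivator that raises the expression of mitochondrial and fatty acid oxidation genes in muscle, heart and brown fat. The microRNA in its intron is transcribed in the same direction as the host and is made into miR-378a, which in mice is known to act on genes of fatty acid use such as Crat, the carnitine acetyltransferase of mitochondria, and on Med13, a subunit of the Mediator complex. Loss of the microRNAs of this gene in mice is known to raise oxidative metabolism. A mature microRNA finds its targets mainly through its seed, the bases near its 5′ end. The genes Mir378b, Mir378c and Mir378d are named as relatives of Mir378a but lie at other places in the genome.

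The mature sequences of those relatives are shown because reads of the family can be told apart only where the sequences differ. They come from RefSeq on build GRCm38.p6, 5′ to 3′, and the capitals mark the seed, bases 2 to 8. Of the 4 family genes, 3 were matched in that table, and the sequence of Mir378a is not printed.
Mir378b: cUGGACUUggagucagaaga
Mir378c: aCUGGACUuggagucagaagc
Mir378d: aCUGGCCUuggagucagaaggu
These arms lie at chr11:88352839-88352858 on the plus strand for Mir378b, at chr14:46954905-46954925 on the minus strand for Mir378c and at chr10:126710355-126710376 on the minus strand for Mir378d. As annotated, the seeds of all 3 differ. Mir378b starts 1 base later than Mir378c in the stretch they share, so their seeds are shifted by 1 base. The seed of Mir378d differs from that of Mir378c by 1 base. Mir378b and Mir378c share an unbroken run of 19 bases, whereas Mir378d shares a run of 14 bases with each of them. Against the annotated Mir378a transcript, the longest run shared was 20 bases for Mir378c, 19 for Mir378b and 15 for Mir378d. Outside the family, 1 gene, Gm27881, shared a run of 12 bases or more, at 16, and it had 4 counts in each library.

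In mm10, Mir378a spans 66 bases of the minus strand of chromosome 18, from 61397835 to 61397900. Its host Ppargc1b (ENSMUSG00000033871.14) runs on the same strand from 61298136 to 61400431. The microRNA begins 2531 bp downstream of the host's start and lies in intron 1 of each of the 3 annotated Ppargc1b transcripts. In the transcript Ppargc1b-201, which has 12 introns, that intron is 17766 bp long and the microRNA sits 2389 bp after its first base. A second microRNA gene, Gm25301 (ENSMUSG00000093026.1), covers all of Mir378a on the plus strand, from 61397813 to 61397925. Gm25301 is an annotated microRNA gene with no name of its own beyond that symbol.

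**Figure D1:**
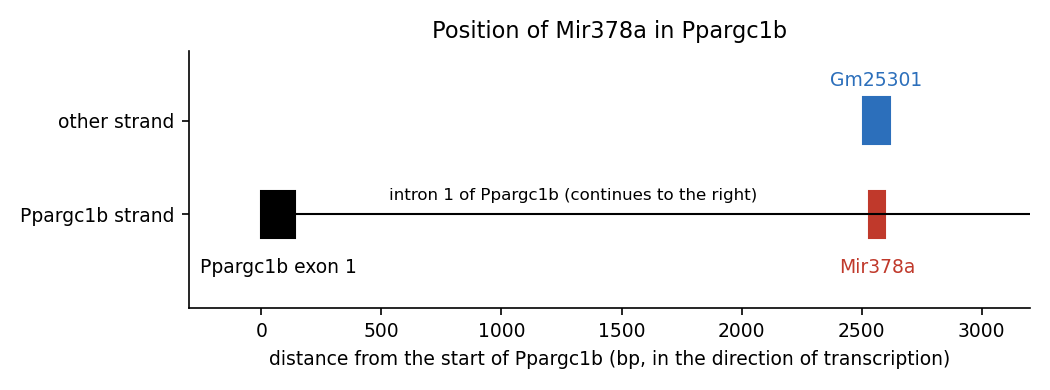
Annotated features near the start of Ppargc1b, by distance in bp from its first base in the direction of transcription, with the host strand below and the other strand above. Mir378a (66 bp) begins at 2531 bp in intron 1, and Gm25301 (113 bp) covers it whole on the other strand.

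By mean level Mir378a was at rank 3 of the microRNA genes. The rank covers reads placed in 1 gene only: 72.3% of the reads listed in replicate 2 and 70.1% in replicate 1 aligned to several places and are in no gene. Genes with near-identical copies, such as those of miR-1 and miR-133a, can therefore not be placed above or below it. Replicate 2 had 261484 own-strand counts of it and replicate 1 had 178103. In CPM, counts scaled to a library total of 1000000 microRNA counts, these were 114094 CPM in replicate 2 and 91325 CPM in replicate 1, a mean of 102710 ± 16100 CPM (SD, n = 2). Its share of microRNA counts was 11.4% in replicate 2, with an exact Clopper-Pearson 95% interval of 11.37 to 11.45, while replicate 1 had 9.13%, with 9.09 to 9.17. Such intervals hold counting error alone, as PCR copies are not separate molecules, and they are far narrower than the gap between the libraries. The SD was 15.7% of the mean, and 7 of the 20 most abundant genes had a smaller one in proportion.

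Only Mir143 and Mir126a had higher mean levels. Mir126a, an endothelial microRNA that lies in an annotated exon of Egfl7, was above Mir378a in both libraries, and the ratio of Mir378a to Mir126a counts was 0.727 in replicate 2 and 0.756 in replicate 1. Mir143, a microRNA of smooth muscle, did not keep one side of Mir378a. Mir378a had 1.21 times the counts of Mir143 in replicate 2 and 0.466 times in replicate 1. Mir378a was therefore at rank 2 in replicate 2 and at rank 3 in replicate 1, and its order against Mir143 is not settled beyond the spread. The range of Mir126a over the libraries did not overlap that of Mir378a.

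Below it came Mir22, a microRNA abundant in striated muscle, with 70386 CPM in replicate 2 and 47359 CPM in replicate 1. Mir378a was 1.62 times as high in replicate 2 and 1.93 times as high in replicate 1. It stood 2.19 and 2.35 times above Mirlet7g, 3.02 and 2.22 times above Mir23a, 3.76 and 2.17 times above Mir21a, and 4.11 and 2.17 times above Mir99a, with replicate 2 first in each pair. The ranges of these 5 genes did not overlap that of Mir378a. Paired over 2 libraries, an exact sign-flip test cannot go below p = 0.5, so the order is given by ranges and without a test.

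**Figure D2:**
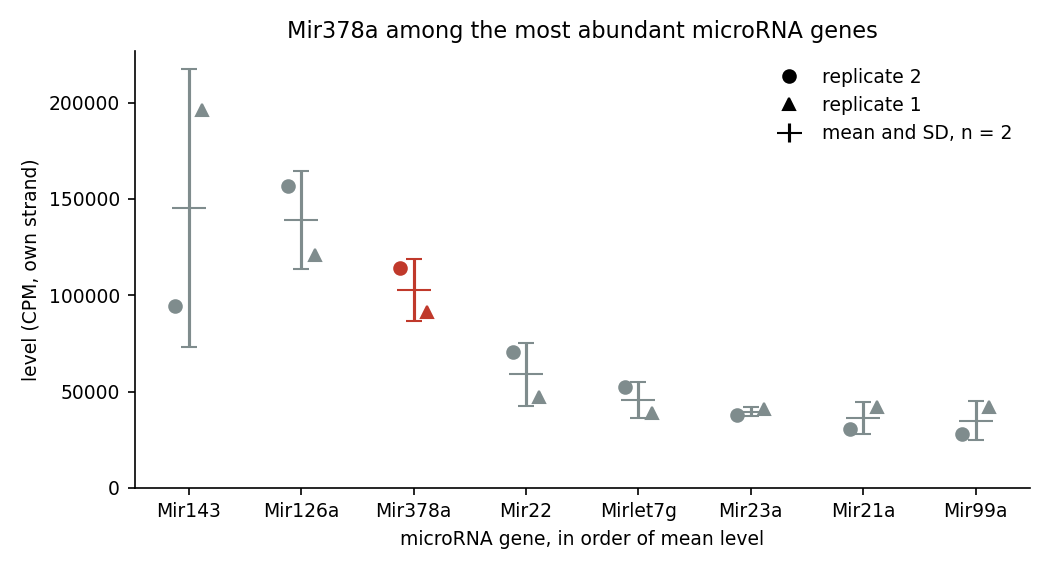
Own-strand level in CPM (vertical axis) of Mir378a, shown in red, and of the genes ranked around it by mean (horizontal axis), with replicate 2 as circles, replicate 1 as triangles and bars for mean and SD (n = 2). Mir378a, at 114094 and 91325 CPM, overlaps Mir143 and lies below Mir126a and above Mir22 in both libraries.

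The strand on which reads were counted decided whether Mir378a was seen at all. The files give each gene 3 counts, for reads of either strand, of its own strand and of the opposite strand. Counted without strand, Mir378a had 0 reads in replicate 2 and 0 in replicate 1, since a read there overlaps Gm25301 as well. Reads that overlap more than 1 gene are listed as ambiguous. Reads opposite to Mir378a numbered 1 in replicate 2 and 0 in replicate 1, where 3 counts, the limit that a count of 0 allows, are 0.000154% of microRNA counts. Gm25301 mirrored this with 1 own-strand count in replicate 2 and 0 in replicate 1, and with 261484 and 178103 counts opposite to it. All but 1 of the reads at this locus were therefore on the strand of Ppargc1b.

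Mir378a supplied 38.2% of all reads that were ambiguous without strand in replicate 2, 684345 in number, and 38.3% of the 464605 in replicate 1. It shared this fate with the other overlapped genes. Opposite microRNA genes were annotated for 64 genes, whose own-strand counts sum to 684349 in replicate 2 and 464605 in replicate 1. Of the 64, 24 were detected on their own strand, and 0 of the 24 reached 10 either-strand counts in each library. Of the 24, 23 had 0 either-strand counts in both libraries, and the exception, Mir126a, had 3 in replicate 2. After Mir126a, Mir378a was the gene that lost the most counts, followed by Mir30e with 32532 and 19690 own-strand counts and Mir191 with 13640 and 10926.

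**Figure D3:**
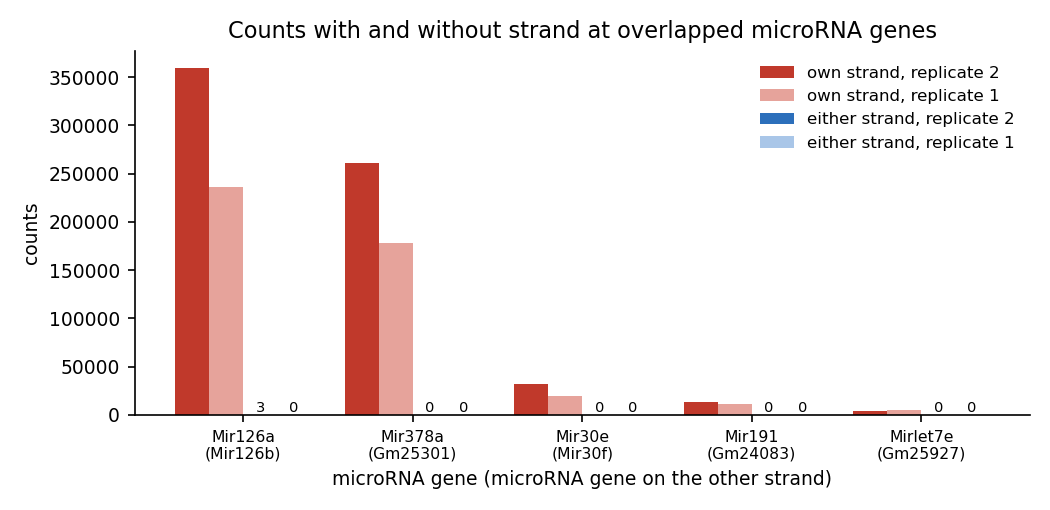
Counts (vertical axis) on the own strand, in red, and on either strand, in blue with the count written above each bar, for the 5 most abundant genes with an opposite microRNA gene, named in brackets, with replicate 2 darker and left of replicate 1. Mir378a had 261484 and 178103 own-strand counts and 0 either-strand counts in both libraries.

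Nearly all counts of the miR-378 family were at Mir378a, which held 99.8% of them in each library. Mir378d had 244 counts in replicate 2 and 169 in replicate 1, or 96.6 ± 14.0 CPM (SD, n = 2). Mir378c had 134 and 90 counts, or 52.3 ± 8.71 CPM (SD, n = 2). Mir378b was the lowest, with 73 and 48 counts, or 28.2 ± 5.12 CPM (SD, n = 2). All 4 genes were detected, yet Mir378a had 1054 to 3710 times the counts of the other members.

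The 3 minor members stood in nearly the same proportion to Mir378a in both libraries. Per 1000 counts of Mir378a, their sum was 1.72 counts in replicate 2 (95% exact interval 1.57 to 1.89) and 1.72 in replicate 1 (1.54 to 1.93). Mir378d alone stood at 0.933 (0.82 to 1.06) in replicate 2 and 0.949 (0.811 to 1.10) in replicate 1. Mir378c stood at 0.512 (0.429 to 0.607) in replicate 2 and 0.505 (0.406 to 0.621) in replicate 1, and Mir378b at 0.279 (0.219 to 0.351) and 0.27 (0.199 to 0.357). Each member's intervals for the 2 libraries overlap, and their width bounds how large a difference could be seen. Whether any of the reads that aligned to several places came from this family, and whether reads of the minor members came from Mir378a, was not tested.

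The libraries were then set against each other for all detected genes, a comparison of libraries and not of conditions. After TMM scaling, the level of Mir378a in replicate 2 was 1.28 times that in replicate 1, a log2 ratio of 0.36 with a counting SE of 0.0044 and an exact 95% interval of 0.347 to 0.365. It was not called, since the rule asks for at least 2-fold and a Benjamini-Hochberg adjusted p under 0.05 in a two-sided exact binomial test, and 11.9% of the 278 detected genes were called. Without the fold minimum it passed, as did 55.4% of the detected genes, because counting error alone is very small at this depth. Its p, too small for the arithmetic used, is not given. An edgeR exact test with the spread estimated over all detected genes, a biological coefficient of variation of 0.352, called 2.52% of the genes, and Mir378a was not among them. That spread comes from the same 2 libraries, so this test is no independent measure of the difference. In bulk tissue, a smaller number of cells of a type and less RNA per cell cannot be told apart.

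This difference was ordinary among the detected genes. The median log2 ratio of all 278 was −0.03, with quartiles at −0.45 and 0.30. Mir378a lay 0.39 above the median, and 61 genes had a higher ratio. In absolute size, 140 of the 278 ratios, or 50.4%, were larger than that of Mir378a. Among the 20 most abundant genes, 13 were above 0 with a median of 0.24, and 12 had a larger absolute ratio.

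**Figure D4:**
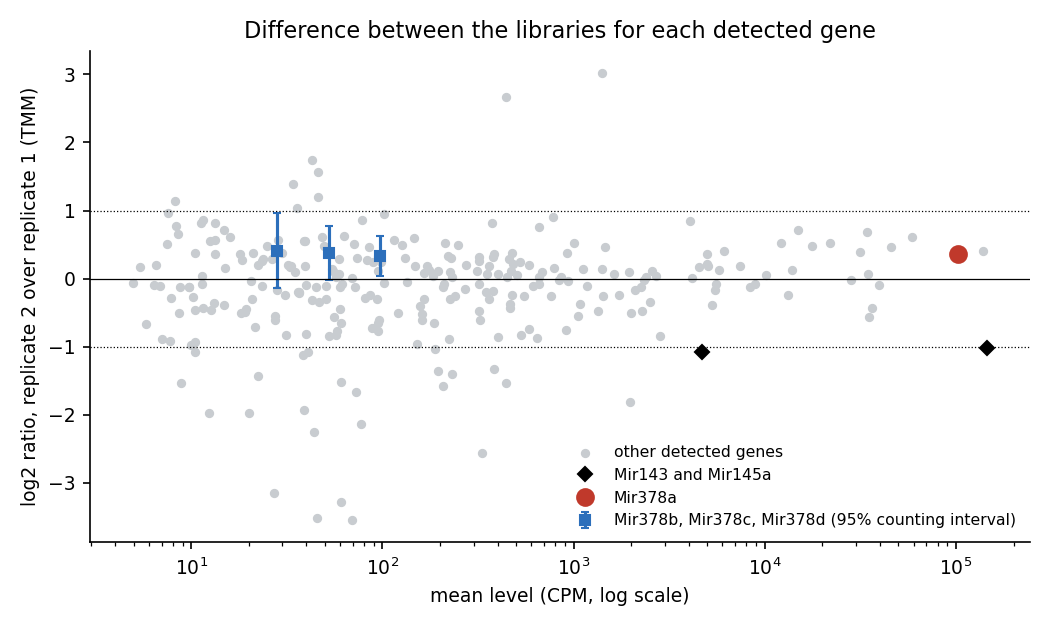
Log2 ratio of replicate 2 over replicate 1 after TMM scaling (vertical axis) against mean CPM (horizontal axis, log scale) for the 278 detected genes, with dotted lines at 2-fold and 95% counting intervals on Mir378b, Mir378c and Mir378d. Mir378a (red, 0.36) and its relatives (blue, 0.33 to 0.40) lie at like ratios, while Mir143 and Mir145a (black) lie at −1.02 and −1.08.

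The other family members had like ratios, by 0.33 (SE 0.144, adjusted exact binomial p = 0.0418) for Mir378d, 0.37 (SE 0.196, adjusted exact p = 0.101) for Mir378c and 0.40 (SE 0.267, adjusted exact p = 0.209) for Mir378b on the log2 scale. None of the 4 genes reached 2-fold. The likeness of these ratios restates the nearly equal proportions to Mir378a given above and is no separate result. Whether reads of the minor members came from Mir378a was not tested.

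The direction of the difference depended on what the counts were divided by. The log2 ratio was 0.32 on library totals, 0.38 with DESeq2 size factors and 0.35 with upper quartile scaling. Dividing by microRNA counts without Mir143, whose share was 9.44% in replicate 2 and 19.6% in replicate 1, left 0.15. As a share of all reads listed, Mir378a made up 1.82% in replicate 2 and 1.89% in replicate 1, 1.86% ± 0.0522 (SD, n = 2), and the log2 ratio turned to −0.0575. Over aligned reads it was 2.02% in replicate 2 and 2.05% in replicate 1, at −0.0203. These divisors move every gene alike. The median of the detected genes was −0.03 under TMM, −0.24 without Mir143 and −0.44 on all reads listed, and Mir378a stayed 0.39 above it each time. The share of listed reads that were placed in 1 microRNA gene itself differed, at 15.9% in replicate 2 and 20.7% in replicate 1. Reads that aligned to several places are not in this share, and its part in the result was not tested.

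**Figure D5:**
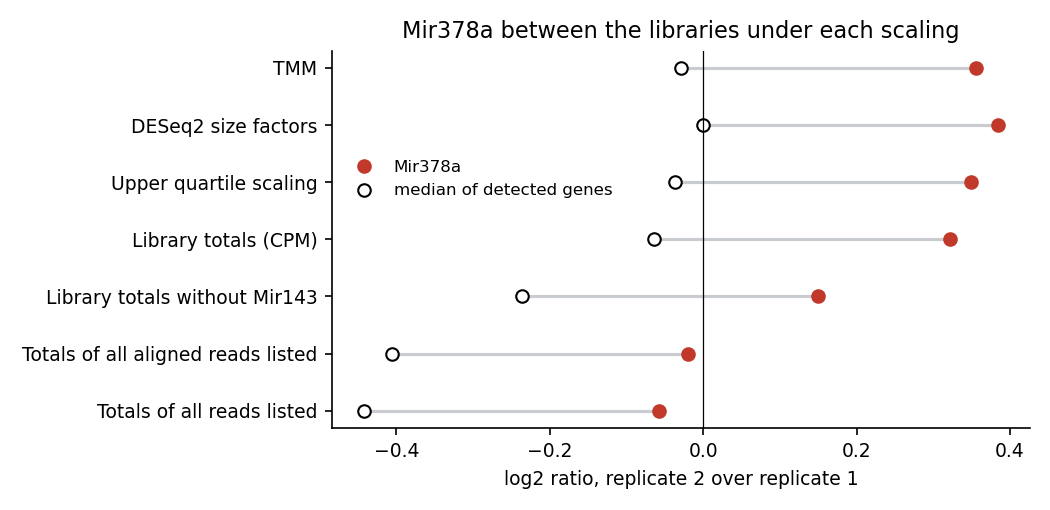
Log2 ratio of replicate 2 over replicate 1 (horizontal axis) for Mir378a, as filled red points, and for the median of the 278 detected genes, as open points, under 7 scalings (rows). Mir378a runs from 0.38 with DESeq2 size factors to −0.0575 on all reads listed. The gap to the median stays at 0.39 because each scaling moves every gene alike.

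By reads placed in 1 gene, Mir378a was the most abundant of the microRNAs that lie in introns of protein-coding genes on the same strand. By the annotation, 733 genes lie so and overlap no exon of such a gene, and 94 of them were detected. Mir126a is not among them, since an annotated exon of Egfl7 covers it, and would stand first if it were counted. Mir378a made up 36.6% of the intronic counts in replicate 2 and 35.8% in replicate 1. Next came Mirlet7g in Wdr82 (45449 ± 9429 CPM), Mir23b in 2010111I01Rik (28213 ± 663 CPM), Mir26b in Ctdsp1 (21785 ± 5192 CPM) and Mir10b in Hoxd4 (17600 ± 3792 CPM, SD, n = 2 each). Mir30e in Nfyc, Mir139 in Pde2a, Mirlet7f-2 in Huwe1, Mir151 in Ptk2 and Mir149 in Gpc1 completed the first 10, from 12146 down to 4075 CPM. The median of the 94 was 196 CPM. Mir378a also lies close to the start of its host, at 2531 bp against a median of 43088 bp, and 6 of the 94 are closer to theirs. Of the 94, 10 were called between the libraries, beside 11.9% of all detected genes, and their median log2 ratio was 0.06.

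Within 1000000 bp of Mir378a, the other detected microRNA genes were Mir145a and Mir143, a pair of smooth muscle, 249925 and 251296 bp upstream on the same strand. Both were lower in replicate 2 and called by the exact binomial test, as were 9.35% of all detected genes in that direction, but neither was called by the edgeR exact test. Mir143 had 216280 counts in replicate 2 and 382581 in replicate 1, a log2 ratio of −1.02, and with DESeq2 size factors it was at −0.99 and not called. Mir145a had 6792 and 12494 counts, at −1.08. The neighbours thus lay on the other side of 0 from Mir378a. On all reads listed, however, Mir378a is below 0 as well. The remaining 5 genes in that window, Gm25301 among them, had 0 or 1 counts in each library.

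By reads placed in 1 gene, other microRNAs tied to the same metabolism were far less abundant, except for Mir23a and Mir23b. Among microRNAs reported to act on Ppargc1a, the sister gene of Ppargc1b, or on mitochondria, 6 of 7 names were found and 4 genes were detected. None of the 4 was called, beside 11.9% of all detected genes, and their median log2 ratio was −0.05 beside −0.03 for all. Mir23a had 39436 ± 2350 CPM and Mir23b 28213 ± 663 CPM (SD, n = 2 each). Mir494, which acts on the mitochondrial transcription factor Tfam, had 56.8 ± 0.137 CPM, and Mir130b had 12.7 ± 3.11 CPM. Mir378a alone had 1.74 times the summed counts of the list in replicate 2 and 1.31 times in replicate 1.

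Of the other microRNAs in introns of metabolic genes, Mir107, in a pantothenate kinase gene, had 1165 counts in replicate 2 and 980 in replicate 1. Mir103-2 and Mir103-1, in other genes of that family, had 22 and 2 counts in replicate 2 and 26 and 1 in replicate 1. Mir33, in the sterol regulator Srebf2, had 10 and 9 counts. Mir378a held 99.5% of this list in replicate 2 and 99.4% in replicate 1, and 0 of its 3 detected genes were called, beside 11.9% of all detected genes. The 3 detected genes are Mir378a itself, Mir107 and Mir103-2. Mir103-1 and Mir103-2 are known copies of 1 mature microRNA, so reads that aligned to both are in neither, and these shares cover only reads placed in 1 gene.

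The brown fat list summed to 0.114% of counts in replicate 2 and 0.149% in replicate 1. These sums cover only reads placed in 1 gene, and reads that aligned to several places are not in them. Of its 8 genes 6 were detected, 0 were called higher and 2, Mir182 and Mir193b, were called lower in replicate 2, beside 2.52% of all detected genes called higher and 9.35% called lower. The median log2 ratio of the list was −0.55 beside −0.03 for all. Mir182 had 24 counts in replicate 2 and 249 in replicate 1, at −3.55, and was also called by the edgeR exact test. Mir193b had 277 counts in replicate 2 and 497 in replicate 1, at −1.04, and was not called by the edgeR exact test. Mir328 was the most abundant, with 524 ± 54.4 CPM (SD, n = 2). On reads placed in 1 gene, Mir378a had 100 and 61.2 times the counts of the whole list in replicates 2 and 1.

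Glucose and insulin microRNAs, again by reads placed in 1 gene, summed to 1.06% in replicate 2 and 1.17% in replicate 1, with 6 of 8 detected. The list had 0 called higher and 1, Mir122 of liver, called lower, beside 9.35% of all detected genes called lower. Mir122, at a log2 ratio of −3.28, was also called by the edgeR exact test. The median log2 ratio of the list was −0.07 beside −0.03 for all. Its most abundant gene, Mir29a, had 8379 ± 634 CPM (SD, n = 2).

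Among reads placed in 1 gene, the counts of Mir378a were 2.45 times those of the striated muscle list in replicate 2 and 3.27 times in replicate 1. Mir22 is not in that list. The list held 4.66% of counts in replicate 2 and 2.79% in replicate 1, mostly through Mir206, a microRNA of skeletal muscle with 96104 and 52086 counts. This comparison leaves out reads that aligned to several places, and genes with near-identical copies such as those of miR-1 and miR-133 may lose reads that way. All 9 detected genes of the list had positive ratios, with a median of 0.61 beside −0.03 for all detected genes. Of the 9, 2 were called higher, beside 2.52% of all detected genes. They were Mir499 at 3.02 and Mir208b at 2.67, which lie in myosin genes of slow and cardiac muscle. Both were also called by the edgeR exact test.

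Marker lists of the cell types of the tissue were counted in the same libraries. Their shares cover only reads placed in 1 gene, so they do not measure the amounts of the cell types. The calls below are by the exact binomial test, which called 2.52% of all detected genes higher and 9.35% lower, and none of the members called in the smooth muscle, fibroblast and leukocyte lists was called by the edgeR exact test. The smooth muscle list took 9.73% of counts in replicate 2 and 20.3% in replicate 1, with 2 of 2 detected genes called lower. The endothelial list took 15.7% and 12.1%, with 0 of 1 called. The fibroblast list took 3.18% and 4.35% (1 of 4 called, lower), the leukocyte list 0.246% and 0.315% (2 of 4 called, lower), and the red cell list 0.046% and 0.0787% (0 of 2 called). The skeletal muscle list took 4.23% in replicate 2 and 2.70% in replicate 1, with 6 of 6 genes detected and 0 called. Most fibroblast counts were of Mir21a, with 69492 in replicate 2 and 81956 in replicate 1. Most skeletal muscle counts were of Mir206, with 96104 and 52086. The liver marker Mir122 had 25 counts in replicate 2 and 215 in replicate 1. The part of cell makeup in the difference at Mir378a was not tested.

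Likeness to Mir378a was measured as the difference in log2 ratio between the libraries, over the 57 other detected genes at 1000 CPM or more on average. With 2 libraries this is a single number per gene and a weak measure. The nearest was Mir151, in an intron of Ptk2, which differed by 0.01 on the log2 scale. Mir378a had 20.5 times its counts in replicate 2 and 20.7 times in replicate 1. Mir30a followed at a difference of 0.04, Mir139 at 0.05, Mir126a at 0.05 and Mirlet7g at 0.11.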

How the data were processed

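The authors deposited raw read counts for each microRNA gene, counted on either strand, on its own strand and on the opposite strand. Per the file notes, they used mm10 with GENCODE M21. Which aligner and counter made them is not given in the sources used here. Rows that name no gene (unmapped, multiply aligned, outside genes, ambiguous) entered neither library sizes nor tests of the main comparison. They entered the divisors made of all reads listed and, without unmapped reads, of all aligned reads. They hold 84.1% of the reads listed for replicate 2 and 79.3% for replicate 1. Own-strand counts were used, and 3 counts equal 1.31 and 1.54 CPM in replicates 2 and 1.

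The libraries were compared over the detected genes by a two-sided conditional exact binomial test on TMM-scaled sizes from edgeR 4.0.16 (Benjamini-Hochberg, prior of 0.5 counts for ratios), with DESeq2 1.42.0 size factors and edgeR's exact test as alternatives. The quasi-likelihood test needs a second group. The test was checked on simulated data with counting noise only, so the check does not cover spread between libraries. The software was R 4.3.3 and Python 3.11.15 with scipy 1.17.1, pandas 2.3.3 and matplotlib 3.10.9. Names in the lists were looked up in GENCODE, and Mir146a and Mir696 were not found under those names. A gene named Mir146 was detected, with 650 counts in replicate 2 and 1024 in replicate 1, but is not in the leukocyte sums.

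Named genes follow a rule: the genes ranked around Mir378a by mean CPM, its family, any gene overlapping it, detected genes within 1000000 bp, the 10 most abundant intronic genes, the lists, and the 5 genes nearest in ratio. Gm27881 and the strand-overlapped genes were named after their values were seen. Members and lists were chosen with earlier results of these data known.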

Additional observations from a re-analysis of the deposited data

How the results depend on the processing

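Mir378a kept a positive log2 ratio, between 0.32 and 0.38, and stayed uncalled under the other microRNA scalings and count minimums planned. It passed without the fold minimum (0.36). The ratio was 0.15 on microRNA counts without Mir143, and turned to −0.0575 on all reads listed and −0.0203 on all aligned reads. Each of these divisors was chosen after seeing the data. The genes called, 33, became 154 without the fold minimum, 18 with at least 50 counts in each library and 7 with the edgeR exact test. The mean share of Mir378a, 10.3%, was 11.98% without Mir143, 1.86% of all reads listed and 0% on either-strand counts. Leaving out 1 replicate gave 9.13% to 11.4%, and a rank of 2 to 3. On either-strand counts the rank was 554, tied with all genes at 0, and no ratio could be had. No paired analysis was possible because there is 1 group. Depth limits genes of few counts, among them the minor family members, and the spread between the libraries rests on 1 difference.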
